A study of Rattus norvegicus with 4 samples.

Results

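The genes described here encode the proteins that bind and carry vitamin A and its active form, retinoic acid: Crabp1, Crabp2, Fabp5, Rbp2, Rbp4 and Ttr. They were taken as every probe set annotated with exactly 1 of these symbols, which gave 9 probe sets for 6 genes out of 7006 probe sets and 4736 genes with 1 symbol on the array. Crabp1, Crabp2, Fabp5 and Rbp2 were each read by 1 probe set, Ttr by 2 and Rbp4 by 3. One further probe set, which lists Ttr among several symbols, was left out.

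The samples were whole rat testis. All animals were placed at 20 days of age on a diet lacking vitamin A. After 9 weeks, retinol was given for 0 h (the untreated deficient group, VAD), 4 h, 8 h or 24 h, so the deficiency is shared by all 4 groups and no vitamin A-sufficient testis was analysed here. Each group is 1 deposited sample on the Affymetrix Rat Genome U34 array, and neither the number of animals behind a sample nor the dose of retinol is stated in the labels. With 1 sample per group no difference could be tested between animals, and every value below is a description of these 4 samples. Whole testis mixes Sertoli, Leydig, peritubular and germ cells, so fewer cells of a type and less RNA per cell cannot be told apart.

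Retinol travels in blood bound to retinol-binding protein 4 (Rbp4), which is itself held by transthyretin (Ttr), and both are secreted mainly by the liver. Inside cells retinol is held by small fatty acid-binding-like proteins such as Rbp2, the form known from the absorptive cells of the intestine. Retinoic acid is held by Crabp1, linked to its breakdown and buffering, by Crabp2, which hands it to the retinoic acid receptors, and by Fabp5, a fatty acid carrier that can hand it to the receptor PPAR delta. In the seminiferous tubule the Sertoli cells take up retinol and supply retinoic acid to germ cells.

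A retinoid response begins where receptor dimers sit on paired copies of a short motif, so the 250 bases before the start of Crabp2, Crabp1 and Rbp2 are shown. Crabp2 and Rbp2 had opposite values after retinol, and Crabp1 is the nearest relative of Crabp2. The sequences are from RefSeq, build GRCr8. Of the 6 genes 5 were matched in the promoter table, and Fabp5 was not. Capitals mark the receptor motif, searched as AGGTCA and as its variants written AGTTCA, then written GGGTCA, and last written GGTTCA. They also mark the TATA box, written TATAAA, and the GC box, written GGGCGG. All were searched on both strands. Matches of the GC box that lie end to end run together.
Crabp2, chr2:175714612-175714861, plus strand: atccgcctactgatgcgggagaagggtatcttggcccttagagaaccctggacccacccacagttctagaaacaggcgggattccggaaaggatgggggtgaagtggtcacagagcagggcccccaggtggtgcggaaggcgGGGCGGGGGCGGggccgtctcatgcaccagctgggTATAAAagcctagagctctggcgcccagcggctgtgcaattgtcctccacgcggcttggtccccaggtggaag
Crabp1, chr8:64047181-64047430, plus strand: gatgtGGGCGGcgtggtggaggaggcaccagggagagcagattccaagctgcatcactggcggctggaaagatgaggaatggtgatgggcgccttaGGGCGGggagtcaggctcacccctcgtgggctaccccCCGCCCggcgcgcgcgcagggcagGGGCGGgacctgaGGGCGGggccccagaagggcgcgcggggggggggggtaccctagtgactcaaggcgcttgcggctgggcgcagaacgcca
Rbp2, chr8:107963292-107963541, plus strand: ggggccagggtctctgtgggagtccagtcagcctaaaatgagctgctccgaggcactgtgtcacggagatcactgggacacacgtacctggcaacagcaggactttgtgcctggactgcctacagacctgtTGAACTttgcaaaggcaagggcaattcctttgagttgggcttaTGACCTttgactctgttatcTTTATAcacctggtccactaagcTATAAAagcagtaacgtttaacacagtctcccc
The Crabp2 window held 1 TATA box, beginning 73 bases before the start, 2 GC boxes and none of the receptor motifs. The Crabp1 window held 5 GC boxes, no TATA box and none of the receptor motifs. The Rbp2 window held AGGTCA and AGTTCA once each, both on the minus strand, and TATA boxes beginning 56 and 33 bases before the start, on the minus and plus strands. Among all 33469 promoter windows of this length, 39.1% held at least 1 of the receptor motifs, 12.9% the TATA box and 30.5% the GC box. The windows of Rbp4 and Ttr held 0 and 1 receptor motif. The search took single copies and did not look for pairs at a set spacing. The AGGTCA and AGTTCA matches in the Rbp2 window were therefore not read as a pair. A match in letters is not a measured binding site, and the windows say nothing of elements farther away.

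The values deposited by the authors are linear ratios per probe set whose reference is not stated. In the VAD column 60.5% of the 7006 probe sets lay within 10% of 1, so the reference is close to the deficient testis for most genes without being the VAD column. A ratio carries no signal level, so levels of different genes cannot be compared, and neither the tissue's defining markers nor a dim transcript can be checked. Changes below are log2 differences between columns, with 2-fold (1 on this scale) used to count. The only error the table gives is how far 2 probe sets of a gene, made from separate database entries, disagree. Over 1083 such genes this noise of 1 probe set (SD) against VAD was 0.42 at 4 h, then 0.51 at 8 h and 0.57 at 24 h. Variation between animals is not in it. The median change of all 7006 probe sets was -0.09, -0.11 and -0.11 at these times.

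**Figure D1:**
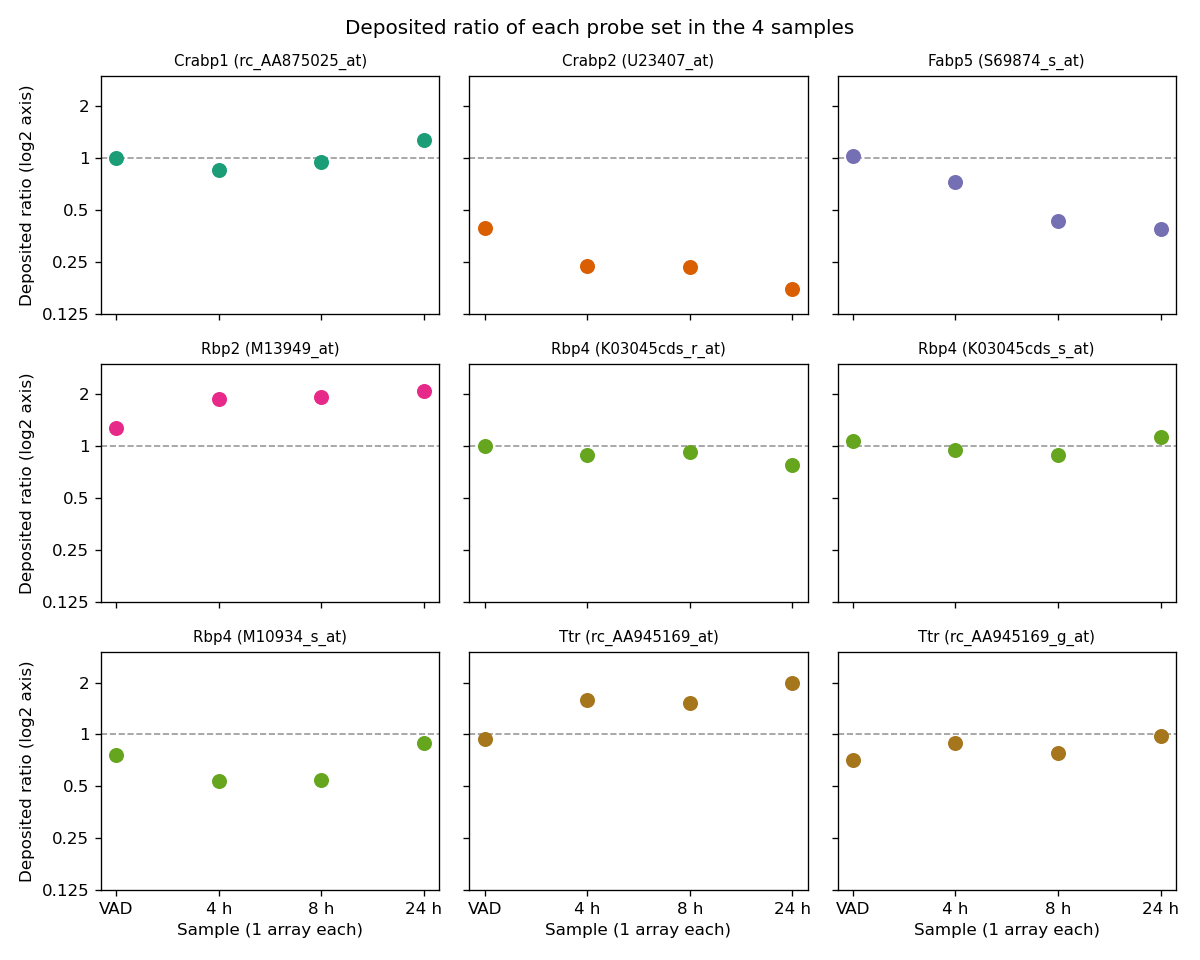
The 9 panels plot the deposited ratio of each probe set (log2 axis, no unit) in the VAD, 4 h, 8 h and 24 h samples, 1 point per sample with no replicate, and the dashed line is a ratio of 1. Crabp2 starts at 0.394 and ends at 0.174, Fabp5 goes from 1.03 to 0.387, Rbp2 from 1.28 to 2.10, and the probe sets of Rbp4 stay between 0.534 and 1.13.

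Among the retinoic acid carriers, Fabp5 and Crabp2 had negative changes at all 3 times, Fabp5 the lower of the pair at 8 h and 24 h and Crabp2 at 4 h, by less than the noise of a difference each time. The Fabp5 ratio was 1.03 in VAD, then 0.728, 0.432 and 0.387 at 4, 8 and 24 h. Each sample was below the one before it, and most of the difference lay between 0 and 8 h. The change from VAD, in log2, came to -0.50 by 4 h, -1.26 by 8 h and -1.42 by 24 h, the last a 2.67-fold difference and 2.49 times the noise of 1 probe set. At 24 h only 60 of 7006 probe sets had a lower value, Fabp5 being number 61 from the bottom. The step from 4 h to 8 h was -0.75 and that from 8 h to 24 h was -0.16. The probe set's name ends in _s_at, the maker's mark for probes that match more than 1 transcript, and RefSeq lists 2 pseudogenes of this gene, Fabp5-ps2 and Fabp5-ps3. How much of the reading comes from such copies was not tested.

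The Crabp2 ratio was far below 1 already in the VAD sample. The reference is not stated, so this ratio does not show that Crabp2 was low in deficient testis. Every change against VAD below rests on this 1 outlying value. Its ratio was 0.394 in VAD, then 0.238, 0.235 and 0.174 at 4, 8 and 24 h. The VAD value was number 7 from the bottom of 7006 probe sets in a column where 20 (0.285%) were at least 2-fold below 1, and the later values were numbers 9, 14 and 11 in theirs. The change from VAD came to -0.73 by 4 h, -0.75 by 8 h and -1.18 by 24 h, a 2.26-fold difference at the last time and 2.08 times the noise. The 4 h and 8 h samples were at the same place, with a difference of -0.02, and the 24 h sample was 0.43 lower again on the log2 scale. Read against the value 1 in place of the VAD column, the same probe set stood at -1.34 in VAD itself and at -2.07, -2.09 and -2.52 after retinol. Those values include the -1.34 of the VAD sample. All 4 ratios were below 1.

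Crabp1, the other cellular retinoic acid-binding protein, did not share that course. Its ratio was 1.003 in VAD, then 0.853, 0.954 and 1.28 at 4, 8 and 24 h. The 24 h sample was the highest and the 4 h sample the lowest. The changes of -0.23, -0.07 and 0.35 against VAD were each smaller than the noise of 1 probe set. Crabp2 minus Crabp1 came to -0.49, -0.67 and -1.53 at the successive times. The noise of a difference between 2 probe sets was 0.60, 0.73 and 0.80, so the pair stood apart by more than it at 24 h only.

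Rbp2, the cellular retinol-binding protein on the array, was the carrier with the steadiest positive values. Its ratio was 1.28 in VAD, then 1.88, 1.94 and 2.10 at 4, 8 and 24 h. The step from VAD to 4 h was the largest, and the later samples differed by 0.04 and 0.12 on the log2 scale from the one before. Against VAD the change was 0.56, 0.60 and 0.72, or 1.64-fold at 24 h, which is 1.26 times the noise and short of 2-fold. Of all 7006 probe sets 6.35% were at least 0.5 higher than VAD at all 3 times, as Rbp2 was. The VAD ratio itself was number 290 from the top of its column, and read against 1 the 24 h value was 1.07.

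The plasma carriers gave probe sets that did not read alike. For Ttr, rc_AA945169_at had ratios of 0.946 in VAD, then 1.59, 1.51 and 1.98 at 4, 8 and 24 h. The second Ttr probe set, rc_AA945169_g_at, made from the same database sequence, had ratios of 0.709, 0.886, 0.782 and 0.975. Both had their lowest value in VAD, their highest at 24 h and a dip at 8 h, but they differed in size. The changes against VAD were 0.75, 0.68 and 1.06 for the first and 0.32, 0.14 and 0.46 for the second. The gene mean at 24 h was 0.76, short of 2-fold, whereas the first probe set alone was 2.09-fold higher. The second was below 1 in all 4 samples, so against the value 1 it stood at -0.17, -0.35 and -0.04 after retinol.

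Rbp4, the retinol carrier that Ttr holds in blood, was read from 2 database sequences. K03045cds_r_at had ratios of 1.001 in VAD, then 0.895, 0.931 and 0.780 at 4, 8 and 24 h. K03045cds_s_at had ratios of 1.08, 0.946, 0.888 and 1.13. M10934_s_at had ratios of 0.757, 0.534, 0.544 and 0.892. All 3 were lower than VAD at 4 h and 8 h, by 0.16 to 0.50 and by 0.10 to 0.48 on the log2 scale. At 24 h they split, at -0.36, 0.06 and 0.24. The step from 8 h to 24 h was -0.26, 0.35 and 0.71, the last being 2.22 times the noise of that step. K03045cds_s_at and M10934_s_at have the _s_at ending described for Fabp5, and the part of other transcripts in their readings was not tested. The gene mean was -0.29, -0.29 and -0.02 at the 3 times. Rbp4 and Ttr, which circulate as a complex, had gene means of opposite sign at 4 h and 8 h (0.54 and 0.41 for Ttr) in the values as deposited. With the arrays scaled on the hybridisation spike-in controls the Rbp4 means were 0.26 and 0.21, the same sign as Ttr.

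Ordered by gene mean at 24 h, the values ran Fabp5 (-1.42), Crabp2 (-1.18), Rbp4 (-0.02), Crabp1 (0.35), Rbp2 (0.72) and Ttr (0.76). Of the 5 gaps between neighbours in this order, 1 exceeded the noise of a difference of 0.80, the 1.16 between Crabp2 and Rbp4. At 4 h 1 of 5 did, the 0.77 between Crabp1 and Ttr against a noise of 0.60, and at 8 h 0 of 5 did, the largest being 0.51. This noise is that between single probe sets. The Rbp4 and Ttr values are means over 3 and 2 probe sets, so it is only a rough guide for their gaps. Fabp5 and Crabp2 were the lowest of the 6 genes at all 3 times. Both were lower at every step from VAD to 24 h, as were 15.3% of all probe sets. Rbp2 was higher at every step, as were 8.76%. The 3 probe sets of Rbp2 and Ttr were above VAD at all 3 times, as were 26.3% of all, and those of Fabp5, Crabp2 and K03045cds_r_at were below it at all 3, as were 44.4%.

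At 4 h 0 of the 9 probe sets were 2-fold higher and 0 were 2-fold lower, where 2.21% and 1.58% of all probe sets were. At 8 h 0 were 2-fold higher (4.04% of all) and 1 was 2-fold lower, Fabp5 (2.53% of all). At 24 h 1 was 2-fold higher, the first Ttr probe set (4.68% of all), and 2 were 2-fold lower, Fabp5 and Crabp2 (3.41% of all). With 9 probe sets and no replicate, counts of 0 to 2 are a description only. The median of the 9 was -0.19, -0.10 and 0.24 at 4, 8 and 24 h. Between successive retinol samples none of the 9 reached 2-fold. That was so for 8 h against 4 h (0.885% of all higher and 1.04% lower), for 24 h against 8 h (0.899% and 0.856%) and for 24 h against 4 h (1.47% and 1.53%). The largest difference of 24 h against 4 h was -0.91, for Fabp5, followed by 0.74 for the M10934 probe set of Rbp4 and 0.59 for Crabp1. These comparisons share samples, so they are not independent of one another.

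**Figure D2:**
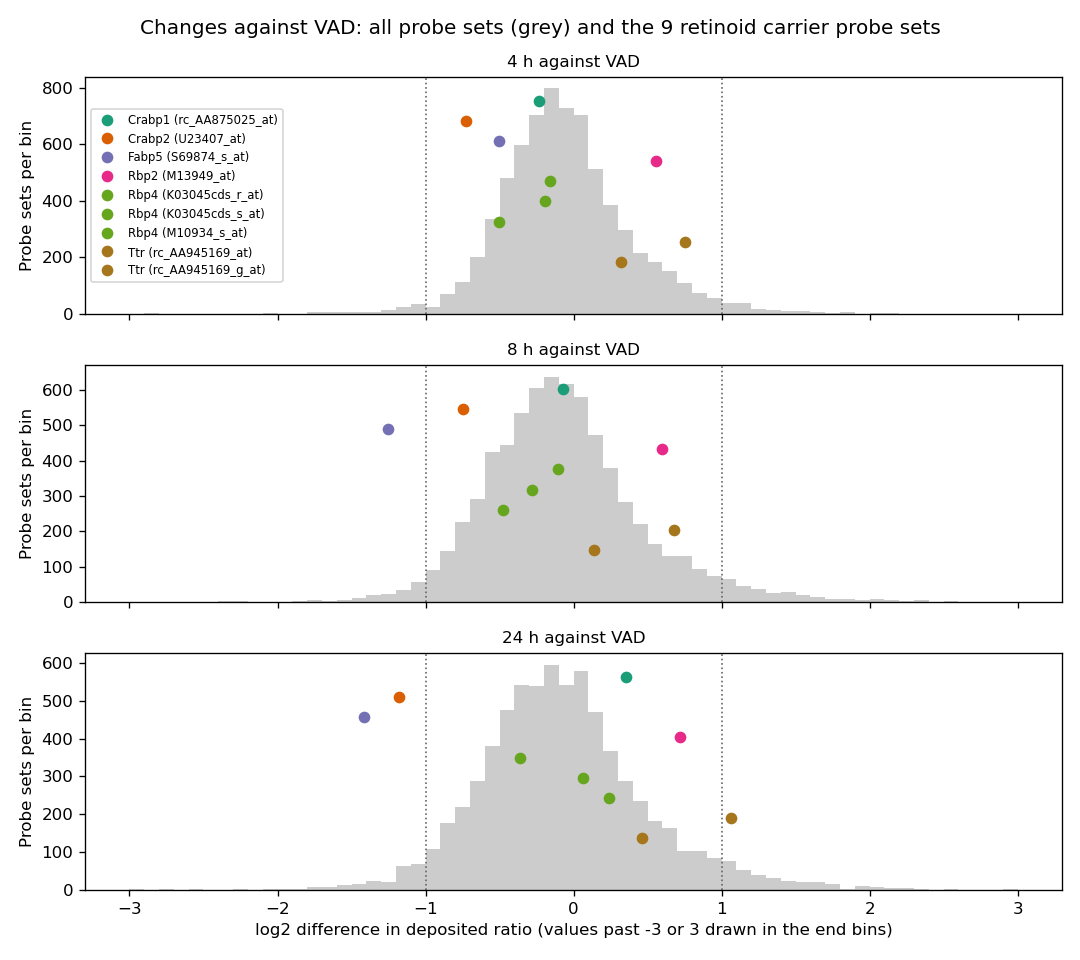
The 3 panels plot, for 4 h, 8 h and 24 h against VAD, the number of probe sets per bin of log2 difference in deposited ratio (grey, 7006 probe sets) and the values of the 9 carrier probe sets as coloured points, whose height only separates them. Dotted lines mark 2-fold; Fabp5 lies beyond the lower line at 8 h (-1.26) and 24 h (-1.42), Crabp2 at 24 h (-1.18), and 1 Ttr probe set lies beyond the upper line at 24 h (1.06).

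These signs depend on how the arrays are put on 1 scale. The 9 hybridisation spike-in probe sets, transcripts added in fixed amounts, had median changes of -0.55, -0.58 and -0.71. Scaling each array on its own median spike-in ratio, a slightly different quantity from the median of their changes, would add 0.55, 0.50 and 0.62 to every change at the 3 times. Fabp5 would then be at 0.05, -0.76 and -0.79 and Crabp2 at -0.18, -0.24 and -0.56, so neither would be 2-fold lower at any time. Rbp2 would be at 1.11, 1.10 and 1.34, the Ttr gene mean at 1.09, 0.91 and 1.38, and the Rbp4 gene mean at 0.26, 0.21 and 0.60. The order of the 6 genes is the same under any such scaling. For the control probe sets of actin, GAPDH and hexokinase, 5' changes were above 3' changes by 0.71, 1.09 and 1.01 on average, and the part of transcript position in the carriers' values was not tested.

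**Figure D3:**
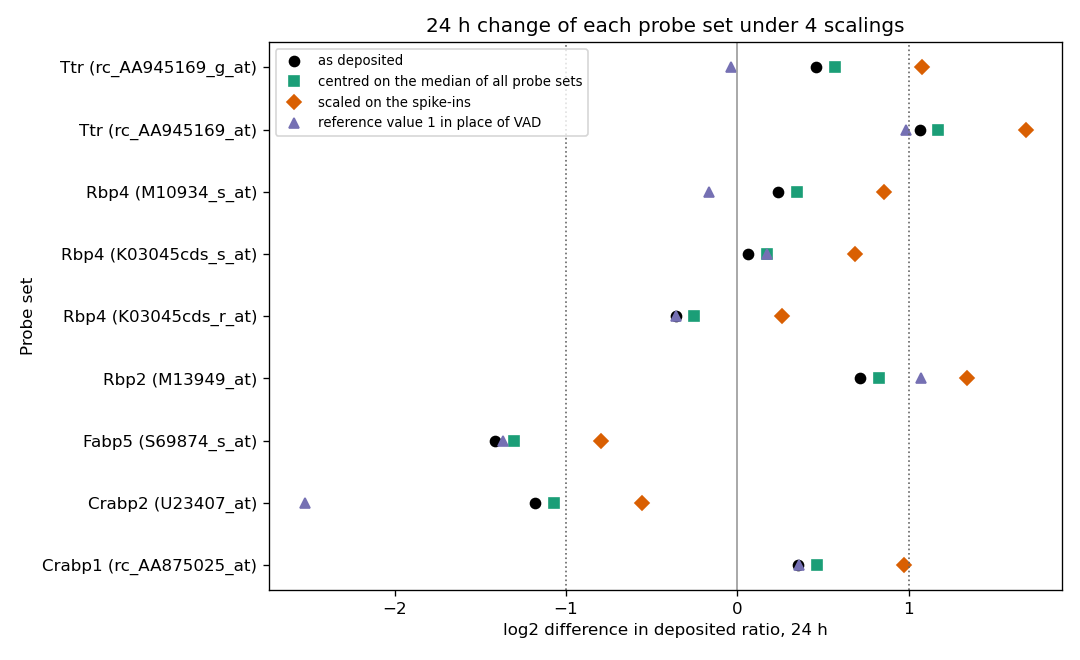
The plot gives the log2 difference of each of the 9 probe sets at 24 h against VAD as deposited (black), with each column centred on the median of all probe sets (green), scaled on the spike-ins (orange) and with the value 1 in place of the VAD column (purple). Spike-in scaling moves every point up by 0.62 and leaves none beyond the lower 2-fold line, and the value 1 places Crabp2 at -2.52.

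Crabp1, Crabp2, Fabp5 and Rbp2 belong to the family of intracellular lipid-binding proteins, a fold shared with the fatty acid-binding proteins. Of 11 other family genes looked for, 8 were measured. Their median was -0.09, -0.17 and -0.39 at 4, 8 and 24 h, where the median of all 4736 genes was -0.09, -0.12 and -0.12. Of these 8, 1 was 2-fold lower at 8 h, Fabp9 of testis germ cells (0.46, -1.38 and -0.77 at the 3 times), where 1.88% of all genes were. At 24 h 1 was 2-fold higher, the intestinal form Fabp2 (0.10, 0.77 and 1.58), where 3.27% of all genes were. Fabp2 and Rbp2 were the 2 highest of the 12 family genes at 24 h. Their VAD ratios were above 1, as were those of all the other measured family genes except Crabp2. Fabp3, the heart form, was at -0.36, -0.77 and -0.91, a course in the direction of Fabp5. The other values at 24 h were -0.54 for Fabp1, -0.36 for Fabp4, -0.41 for Fabp12, -0.04 for Fabp6 and 0.38 for Fabp7.

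**Figure D4:**
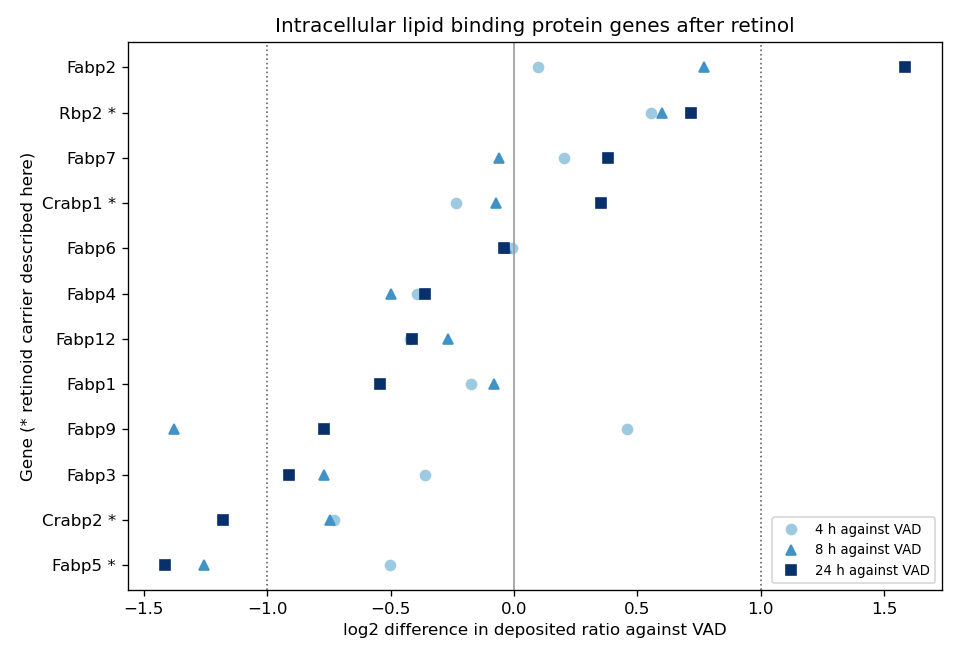
The plot gives the log2 difference in deposited ratio against VAD at 4 h (circles), 8 h (triangles) and 24 h (squares) for the 12 measured genes of the family, ordered by the 24 h value, with asterisks on the retinoid carriers. Fabp5 (-1.42) and Crabp2 (-1.18) stand at the lower end and Rbp2 (0.72) and Fabp2 (1.58) at the upper end.

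Fabp5 lies in a chromosomal cluster of fatty acid-binding protein genes. In the order of protein-coding genes on GRCr8, 5 of its 10 nearest neighbours were measured, and 3 of these were Fabp12, Fabp4 and Fabp9. At 24 h the 5 were all negative, as were 59.9% of all genes, at -0.41 for Fabp12, -0.36 for Fabp4, -0.77 for Fabp9, -0.24 for the inositol phosphatase gene Impa1 and -0.32 for Tpd52. None was as low as Fabp5 at that time. At 8 h Fabp9 (-1.38) was lower than Fabp5 (-1.26), and at 4 h it was at 0.46. Of the 10 nearest neighbours of Crabp2, 3 were measured. The intermediate filament gene Nes was at 0.49, 0.34 and -0.15, the proteoglycan gene Bcan at 0.24, -0.54 and -0.44, and the mitochondrial ribosomal protein gene mrpl24 at -0.24, -0.52 and -0.54. At 4 h 2 of the 3 were above VAD, and mrpl24 was lower at every step, as Crabp2 was.

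Rbp4 belongs to another family, the lipocalins, of which 8 of 20 other genes looked for were measured. Their medians were 0.04, -0.03 and -0.03 at the 3 times, and 1 was 2-fold higher at 24 h, the odorant-binding protein gene Obp1f (1.02), where 3.27% of all genes were. Since Rbp4 and Ttr are plasma proteins of the liver, other liver plasma protein genes were set beside them, and 19 of 22 were measured. Their medians were -0.03, -0.13 and -0.08, with 0 (1.41% of all genes), 1 and 0 of 19 at least 2-fold higher at the 3 times. None was 2-fold lower at any of them (2.64% of all genes at 24 h). The 1 was the fibrinogen gene Fgg at 8 h (1.09, from probe sets at 0.32 and 1.87), where 2.83% of all genes were 2-fold higher. Of the 19, 10, 10 and 12 were below VAD at the 3 times, where 61.1%, 61.5% and 59.9% of all genes were. Albumin (Alb), the main plasma protein, was at -0.10, -0.43 and -0.40 as the mean of 4 probe sets that spread from -0.40 to 0.30 at 4 h and from -1.06 to 0.11 at 24 h. The apolipoprotein gene Apoa4 was at 0.40, 0.67 and 0.16. The part of liver or blood RNA in the Ttr and Rbp4 values was not tested.

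Of 44 other genes of retinoid handling and reception looked for, 21 were measured, with medians of -0.17, -0.07 and -0.14. Rpe65, the retinoid isomerase of the eye, was 2-fold lower at 4 h (-1.47, where 1.25% of all genes were) and 8 h (-2.02, where 1.88% were). The retinol dehydrogenase gene Rdh10 was 2-fold higher at 8 h (1.06, where 2.83% of all genes were). The alcohol dehydrogenase gene Adh4 was 2-fold higher at 24 h (1.19, where 3.27% were), after 0.43 and 0.72. Each of these counts is 1 gene of 21. Lrp2, the endocytic receptor megalin that takes up Rbp4 in kidney, was at -0.17, -0.15 and 0.00 as the mean of 3 probe sets. Ppard, the receptor that Fabp5 can supply, was at 0.14, 0.59 and -0.01, also from 3 probe sets. These 24 h means came from probe sets that spread from -0.34 to 0.26 for Lrp2 and from -0.58 to 0.41 for Ppard. The membrane receptor Stra6 was not analysed here.

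The genes whose 3 changes were closest to those of a carrier past 2-fold were found by the root mean square difference over the 3 changes. For Crabp2 the closest were Hspd1 (0.03; -0.68, -0.74 and -1.16), Ccl5, Ndufb9, Galnt6 and Prkcz (to 0.07). For Fabp5 they were Polr2i (0.09; -0.60, -1.27 and -1.29), Angpt2, Ppp1r16b, Ptprv and C9h6orf141 (to 0.16). For the first Ttr probe set they were Adam17 (0.03; 0.71, 0.65 and 1.05), Rassf9, Msn, Kcna2 and Ifngr1 (to 0.09). With 3 changes that share the VAD sample, among 4736 genes, such likeness is a description only.

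Marker lists of the testis cell types differed among themselves, with wide ranges. At 24 h, when the median of all genes was -0.12, the median change was -0.44 for 6 of 8 Leydig markers (range -1.95 to 1.63), -0.53 for 8 of 9 spermatid markers (-1.0 to 0.01) and -0.34 for 6 of 6 peritubular myoid markers (-0.66 to 0.38). It was 0.15 for 11 of 14 Sertoli markers (-1.13 to 1.03), 0.29 for 3 of 5 spermatogonial markers (0.24 to 1.01) and -0.03 for 6 of 7 spermatocyte markers (-0.70 to 0.68). Macrophage markers (3 of 6) had a median of 0.27 and endothelial markers (4 of 6) of 0.07. The spermatid markers had medians of 0.75 at 4 h, -0.37 at 8 h and -0.53 at 24 h. Those of the peritubular myoid markers were -0.24, -0.43 and -0.34 at the same times. The part of cell composition in the carriers' values was not tested.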

How the data were processed

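Whole testis RNA was hybridised to the Affymetrix Rat Genome U34 array, 1 deposited sample for each of VAD, 4 h, 8 h and 24 h. The deposited values are linear ratios per probe set, which the authors made with GCOS and MAS5 per the submitters' processing notes. For the reference of the ratios, the scaling and any pooling, nothing is stated.

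Of 8799 probe sets, 59 were controls, 7006 carried 1 symbol, 308 several and 1426 none listed. Only those with 1 symbol were used. For 6985 of them the Entrez ID was found in the RefSeq table of GRCr8, and no symbol differed. Ratios were put on the log2 scale and a gene was the mean over its probe sets. No test exists with 1 sample per group, so no p-value was computed. The procedure was tested on simulated data. Python 3.11.15, numpy 2.4.6 and pandas 2.3.3 were used. The members and lists were chosen with earlier results of these data known. Named genes are all members, family and retinoid genes past 2-fold, and the 5 nearest patterns. Other named genes, including the neighbours, were chosen after their values were seen. Alternatives covered scaling, denominator, threshold, probe set choice and noise pairs. The number of arrays limits the precision.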

Additional observations from a re-analysis of the deposited data

How the results depend on the processing

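Of the 27 changes of the 9 probe sets against VAD, 1 was 2-fold higher and 3 were 2-fold lower as deposited. The numbers were 1 and 3 after centring on the median, 1 and 5 with the value 1 as denominator, and 7 and 0 after spike-in scaling. With the value 1 the 1 higher was Rbp2 at 24 h (1.07) in place of the first Ttr probe set, which fell short of 2-fold at 0.98. Under spike-in scaling 22 of 27 lay above VAD in place of 12. That scaling raises the changes of all probe sets alike, by 0.50 to 0.62, and the share of all probe sets then above VAD was not counted. The 22 of 27 is therefore no result about the carriers in particular. The 27 values are 9 probe sets at 3 times that share the VAD sample. None of the 4 that passed 2-fold as deposited turned sign with the value 1 as denominator. Centring and spike-in scaling add at most 0.62 to a change, so they could not turn the sign of a value past 2-fold. Among the smaller changes, Fabp5 at 4 h went from -0.50 to 0.05 under spike-in scaling. Of the 7 under spike-in scaling, the second Ttr probe set at 24 h (1.08) stood at -0.04 with the value 1 as denominator.

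Counts that differed by over 1.5 times are given as higher and then lower. With spike-in scaling the member counts became 2 higher at 4 h, 2 and 0 at 8 h, and 3 and 0 at 24 h. All probe sets then gave 843 and 20 at 4 h, 879 and 30 at 8 h, and 1267 and 31 at 24 h, in place of 155 and 111, 283 and 177, and 328 and 239. Centring gave 117 lower at 8 h. With the value 1 as denominator, members 2-fold lower were 1 at 4 h and 2 at 8 h, Crabp2 being the added one. A 1.5-fold threshold gave members 1 and 1 at 4 h, 2 and 2 at 8 h, and 2 higher at 24 h, and all probe sets 570 and 562, 732 and 979, and 811 and 1092. A 3-fold threshold gave 0 members at every time, and all probe sets 27 and 17, 69 and 26, and 81 and 35. Counted as genes by the mean, 0 members were higher at 24 h, and all genes gave 67 and 59, 134 and 89, and 155 and 125. Taking 1 probe set a gene, by highest mean ratio, 63, 90 and 118 genes were lower. Noise from all 1565 pairs was 0.39, 0.46 and 0.51 at the 3 times. No paired analysis was possible because each group holds 1 sample. Ratios keep no signal over background, so depth could not be judged.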
